A study of Mus musculus with 6 samples.

Results

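The collagen genes of the mouse were followed in dorsal root ganglia (DRGs) from mice with a deletion of Meis1 in nociceptors. Probe sets listed for a single gene with a symbol of the form Col, a type number, a and a chain number were taken, which gave 82 probe sets for 42 collagen genes among the 18193 genes that had a probe set of their own. Each gene was represented by its brightest probe set, the one with the highest mean log2 intensity over the 6 arrays. The genes were sorted into 11 fibrillar collagens, 6 basement membrane collagens (the chains of type IV) and 25 others.

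For each of 3 Meis1cko and 3 control mice at P60, RNA of the cervical, thoracic and lumbar ganglia was read on 1 single-colour Affymetrix mouse genome array. Meis1cko mice carry floxed Meis1 and Cre driven by Nav1.8, which directs the deletion of a Meis1 exon to nociceptors. The study reports that at P60 Meis1 could no longer be detected in nociceptors and remained in a few large neurons. Large neurons, fibroblasts, glia and vessels of the same ganglia also give RNA. The arrays' controls are labelled control without their alleles, the study names Meis1 F/F littermates as controls for behaviour, and animals of either sex were used there. The tissue is whole ganglion, in which fewer cells of a type and less RNA per cell cannot be told apart. The arrays compared expression between the genotypes across the genome, and the collagen genes are its connective tissue part.

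Collagens are triple helical proteins of the extracellular matrix. Fibrillar collagens (types I, II, III, V, XI, XXIV and XXVII) form the banded fibrils, type IV forms the sheet of basement membranes, type VI forms beaded filaments, and the FACIT collagens, among them type XII, sit on the surface of fibrils. In peripheral nerves and ganglia, fibroblasts make much of the fibrillar collagen of the epineurium and endoneurium, while basement membrane lies around Schwann cells, satellite glia, perineurial cells and vessels.

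Meis1 itself had an intensity of 109.7, 144 and 90.2 in control replicates 1, 2 and 3 and of 66.0, 72.1 and 64.2 in Meis1cko replicates 1, 2 and 3. Its log2 fold change was -0.74 (SE 0.18, unadjusted p = 0.00434 and adjusted p = 1 from limma), and whether the probe set falls in the deleted exon was not analysed here. Sensory neuron markers were bright on every array, with a summed intensity of 69457 to 80807. Array medians lay between 62.5 and 65.5, and 3 collagen genes (Col6a5, Col17a1 and Col24a1) had a control mean below the 25th percentile of every array. On both replicate 3 arrays the log2 difference of 3′ over 5′ Actb control probe sets was 0.423 to 0.440, and on the other 4 arrays it was 1.23 to 1.66.

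No collagen gene passed an adjusted p of 0.05 in limma, in either direction, and the adjusted p was 1 for all 42. Over all genes, 0.0055% were higher and 0% lower at that threshold. At an unadjusted p under 0.05, 5 of the 42 collagen genes were lower in Meis1cko DRGs (11.9%) and 0 higher, against 1.37% lower and 1.19% higher over all genes. The 5 were Col12a1, Col4a3, Col3a1, Col1a2 and Col1a1. With the replicate numbers as a block, 9 were lower (21.4%) and 2 higher (4.76%), against 3.81% and 3.3% over all genes. The 2 higher were Col18a1 and Col24a1, of which Col24a1 had a control mean below the 25th percentile of every array. The lowest adjusted p with the block was 0.108, that of Col12a1. In that fit 0.044% of all genes passed the adjusted threshold higher and 0.055% lower, and 0 collagen genes did. At the thresholds of the methods, a fold over 1.5 and an unadjusted p under 0.05, Col3a1 and Col12a1 were lower (4.76% of 42) and 0 were higher, against 0.456% and 0.324% over all genes. With the block 3 were lower at those thresholds, against 0.588% of all genes. The test that the study's methods name, run on the same log2 values, called 0 collagen genes lower and 0 higher at those thresholds, against 0.269% and 0.225% of all genes. In limma both calls were lost without control replicate 1, and both were lost without Meis1cko replicate 2.

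The log2 fold change, Meis1cko minus control, was below 0 for 27 of 42 collagen genes (64.3%), against 54.2% of all genes. Its median was -0.06 over the collagen genes and -0.01 over all genes. By class the median was -0.13 for fibrillar collagens (range -0.73 to 0.43), -0.01 for type IV (range -0.43 to 0.14) and -0.06 for the others (range -0.86 to 0.32). For 28 of the 42 the size of the log2 fold change was under 0.20. Without control replicate 1 the median was 0.01, with 21 genes above and 21 below 0.

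**Figure D1:**
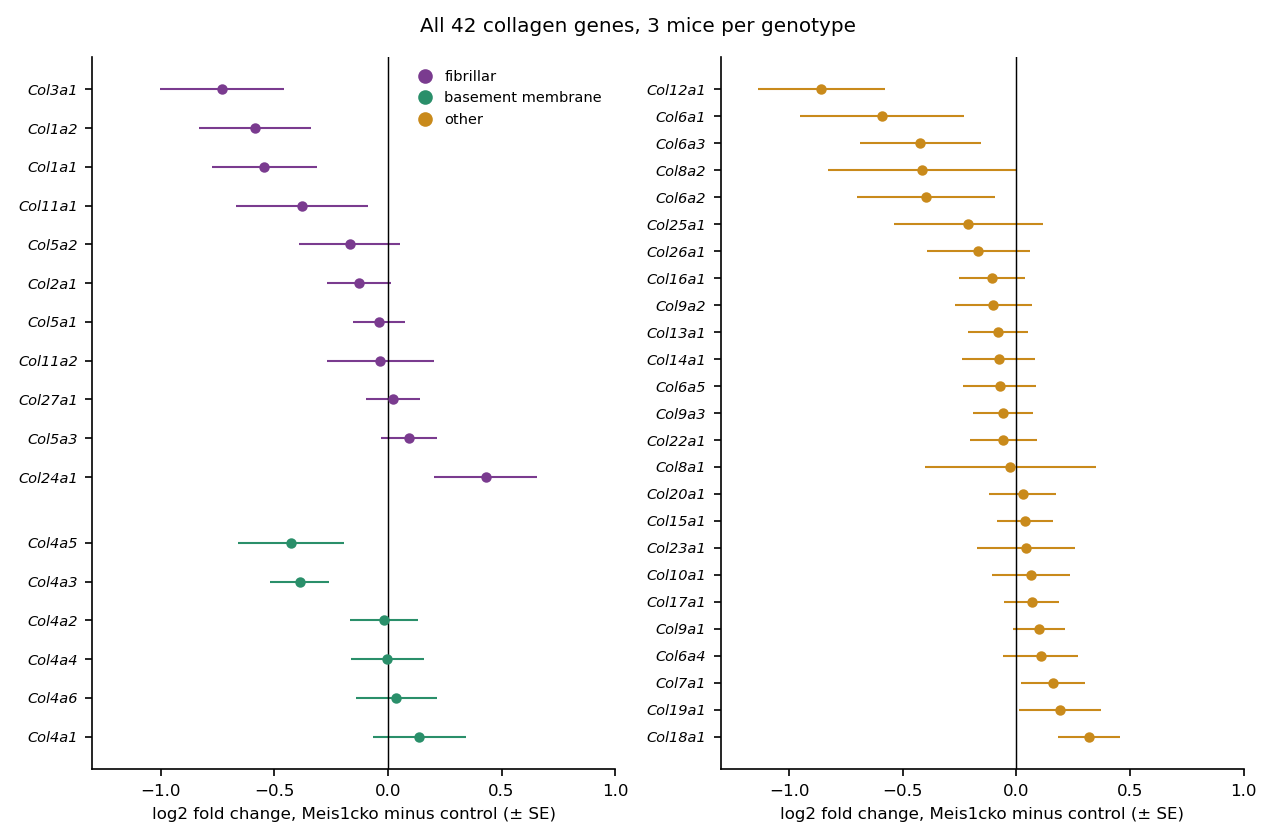
Log2 fold change (Meis1cko minus control, x axis) of each of the 42 collagen genes by its brightest probe set, with bars of 1 SE, coloured by class. Col12a1 (-0.86) and Col3a1 (-0.73) lie farthest to the left, and 28 genes lie within 0.20 of 0.

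Type I and type III collagen are the main fibril proteins of loose connective tissue. Col1a2, the α2 chain of type I, had an intensity of 4905, 2965 and 2469 in control replicates 1, 2 and 3, against 2332, 2215 and 2061 in Meis1cko replicates 1, 2 and 3. All Meis1cko values lay below all control values, and control replicate 1 stood well above the other 2 controls. The means were 3446 ± 1287 and 2203 ± 136 (SD, n = 3 mice each), and Col1a2 differed by -0.58 on the log2 scale (SE 0.25, unadjusted p = 0.0472 from limma), or by -0.30 (SE 0.15, unadjusted p = 0.0927) without control replicate 1. Its partner Col1a1, the α1 chain, read 345, 254 and 206 in the controls and 164, 155 and 228 in Meis1cko, with Meis1cko replicate 3 inside the control range. The log2 fold change of Col1a1 was -0.54 (SE 0.23, unadjusted p = 0.0485 from limma), or -0.35 (unadjusted p = 0.160) without control replicate 1.

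Col3a1, the single chain of type III collagen, read 2904, 1518 and 1487 in the controls and 1261, 948 and 1198 in Meis1cko DRGs. The genotypes did not overlap, and control replicate 1 was 1.93 times the mean of the other 2 controls. Means were 1970 ± 809 and 1136 ± 165 (SD, n = 3 mice each), a log2 fold change of -0.73 (SE 0.27, unadjusted p = 0.0303 from limma). Without control replicate 1 it was -0.41 (SE 0.17, unadjusted p = 0.0496), a fold under 1.5. For a single gene whose genotypes do not overlap, an exact permutation test (two-sided) gives p = 0.1, the smallest that 3 mice against 3 allow.

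Several collagen genes had lower values in Meis1cko and control replicate 1 as their highest array. No promoter sequence was available for Col1a1 and Col12a1 among them. The sequences of 3 promoters are shown, from such genes of types I, III and VI. Each is the 200 bases before the annotated start (RefSeq, GRCm38.p6), on the gene's strand, with matches to the CCAAT box (CCAAT), the TATA box (letters TATAAA), the GC box (letters GGGCGG) or the MEIS core (letters TGACAG), on either strand, in capitals. The Col1a2 window lies at chr6:4505418-4505617 (plus strand), that of Col3a1 at chr1:45311338-45311537 (plus) and that of Col6a1 at chr10:76726045-76726244 (minus).
Col1a2: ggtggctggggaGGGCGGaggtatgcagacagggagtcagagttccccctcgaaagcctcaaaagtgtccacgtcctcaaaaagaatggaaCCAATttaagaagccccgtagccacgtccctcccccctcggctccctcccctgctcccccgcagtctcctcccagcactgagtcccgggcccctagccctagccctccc
Col3a1: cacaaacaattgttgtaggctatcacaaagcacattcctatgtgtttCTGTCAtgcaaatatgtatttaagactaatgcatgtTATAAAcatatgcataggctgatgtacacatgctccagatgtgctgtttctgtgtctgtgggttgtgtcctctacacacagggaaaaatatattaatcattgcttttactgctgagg
Col6a1: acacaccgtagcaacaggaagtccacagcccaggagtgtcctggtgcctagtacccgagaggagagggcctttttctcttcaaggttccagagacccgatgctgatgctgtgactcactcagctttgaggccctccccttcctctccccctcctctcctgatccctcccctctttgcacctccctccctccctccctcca
Col1a2 held 1 GC box and 1 CCAAT, and Col3a1 held 1 TATAAA and 1 MEIS core, read on the other strand as CTGTCA. Col6a1 held none of the 4. No matches in these windows overlapped. Over all 32851 promoter windows of this length, 29.3% held CCAAT, 9.96% TATAAA, 31% the GC box and 12.9% the MEIS core. Of the 36 windows that 33 collagen genes had, 27.8% held CCAAT, 11.1% TATAAA, 58.3% the GC box and 11.1% the MEIS core. A match is a string of letters in the window and says nothing of binding.

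**Figure D2:**
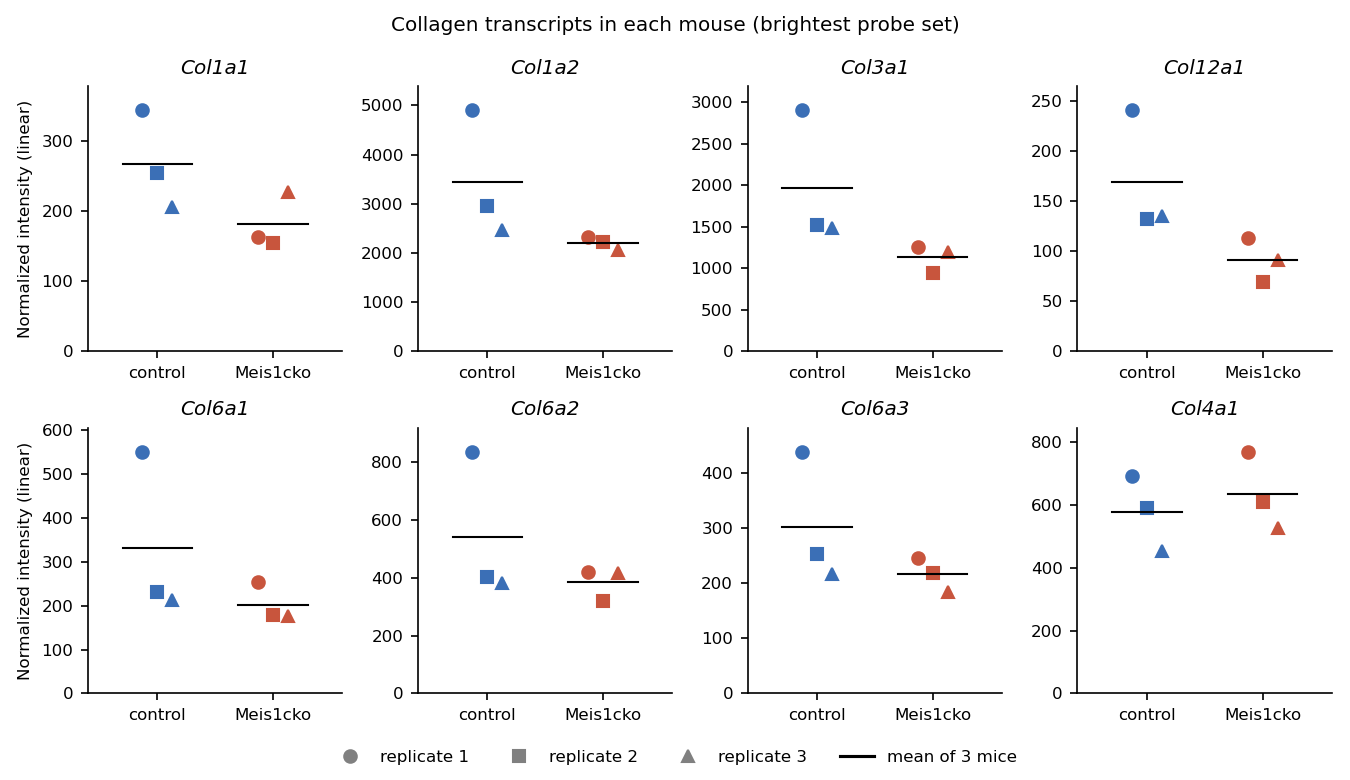
Normalized intensity (linear, y axis from 0) of 8 collagen genes in each of the 6 mice, with symbols for replicate numbers and a line at the mean of 3 mice. Control replicate 1 is the highest point in every panel but Col4a1, and the genotypes do not overlap for Col1a2, Col3a1 and Col12a1.

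The remaining fibrillar collagens showed smaller or opposite differences. Col5a2, a chain of the type V collagen that nucleates fibrils and a direct neighbour of Col3a1 on chromosome 1, read 532, 344 and 328 in the controls and 414, 349.7 and 292 in Meis1cko. The genotypes overlapped, with a log2 difference of -0.17 (SE 0.22) that became 0.05 without control replicate 1. Col5a3, another type V chain, read 241, 266 and 245 in the controls and 257, 296 and 249.95 in Meis1cko, a log2 fold change of 0.09 (SE 0.12). Col11a1, a chain of the cartilage fibril collagen type XI, lay at -0.38 (SE 0.29), and Col2a1, the chain of type II, at -0.13. The highest value of the class was that of Col24a1, 0.43 (SE 0.23), for a probe set whose control mean of 12.9 was below the 25th percentile of every array.

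Type VI collagen is a filament protein near cell surfaces, built from an α1, an α2 and a longer chain. Col6a1 read 549.6, 232 and 214 in the controls and 253, 179 and 176 in Meis1cko, with a log2 fold change of -0.59 (SE 0.36, unadjusted p = 0.143 from limma). Col6a2, which lies next to Col6a1 on chromosome 10, read 833, 400.4 and 383 in the controls and 421, 319.8 and 415 in Meis1cko, with -0.40 (SE 0.30). Col6a3, the longer chain, read 438, 252 and 216 against 246, 218 and 184, with -0.42 (SE 0.27).

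All 3 type VI chains had overlapping genotypes. Control replicate 1 was 2.47, 2.13 and 1.87 times the mean of the other 2 controls for Col6a1, Col6a2 and Col6a3, and without it their log2 fold changes were -0.16, -0.03 and -0.12. With the replicate numbers as a block, the unadjusted p was 0.0099 for Col6a1, 0.0796 for Col6a2 and 0.0221 for Col6a3, with an adjusted p of 0.506 for the first. The related chains Col6a4 and Col6a5 had log2 fold changes of 0.11 and -0.07, and the latter was dim.

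Col12a1, the FACIT collagen of type XII that coats type I fibrils, showed the lowest log2 fold change of the 42 genes. It read 241, 132 and 136 in the controls and 114, 69.4 and 91.6 in Meis1cko, with no overlap. Means were 169 ± 61.9 and 91.5 ± 22.1 (SD, n = 3 mice each), a log2 fold change of -0.86 (SE 0.28, unadjusted p = 0.0169 from limma). Without control replicate 1 the log2 fold change was -0.58 (SE 0.22, unadjusted p = 0.0423), just short of a fold of 1.5, and without Meis1cko replicate 2 it was -0.67 (SE 0.30, unadjusted p = 0.0617). The 9 FACIT genes had a median log2 fold change of -0.06, with Col14a1 at -0.08 and Col16a1 at -0.11. Col16a1 read 301, 320.1 and 278 in the controls and 329, 259.6 and 250.2 in Meis1cko.

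Type IV collagen, the network of basement membranes, is built from Col4a1 and Col4a2 in nearly all tissues and from the other chains in a few. Col4a1 read 691, 589.9 and 454 in the controls and 768, 609.7 and 527 in Meis1cko, where each Meis1cko value was above the control of the same number. Its log2 fold change was 0.14 (SE 0.20, unadjusted p = 0.517 from limma) and 0.28 without control replicate 1. Col4a2, its direct neighbour on chromosome 8, read 229.7, 189 and 168 in the controls and 208, 179.6 and 188 in Meis1cko, a log2 fold change of -0.02 (SE 0.15). The genotypes overlapped for both.

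Col4a3, a chain of the specialised network known from kidney glomeruli, read 39.9, 37.5 and 36.3 in the controls and 25.3, 30.6 and 31.3 in Meis1cko. These genotypes did not overlap, and here control replicate 1 was 1.08 times the mean of the other 2. Means were 37.9 ± 1.81 and 29.1 ± 3.28 (SD, n = 3 mice each), a log2 fold change of -0.39 (SE 0.13, unadjusted p = 0.0192 from limma) that was -0.35 (unadjusted p = 0.0610) without control replicate 1. Col4a4, its partner and neighbour on chromosome 1, read 70.4, 66.0 and 49.2 against 64.0, 62.9 and 56.6, a log2 fold change of 0.00 to 2 decimals (SE 0.16). Col4a5, the chain that joins both in that network, read 43.6, 40.1 and 27.5 against 34.8, 25.7 and 22.1, with -0.43 (SE 0.23, unadjusted p = 0.108, or unadjusted p = 0.00692 with the block).

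Among the other classes, Col8a1, a chain of the short network type VIII found in vessels, read 312, 191 and 144 in the controls and 326, 138 and 181 in Meis1cko, a log2 fold change of -0.03 (SE 0.38). Its partner Col8a2 had -0.41 (SE 0.42) and 0.05 without control replicate 1, which was 2.63 times the mean of the other 2 controls. Col18a1, the basement membrane multiplexin whose end fragment is endostatin, was singled out after its values were seen. It read 168, 181 and 158 in the controls and 242, 206 and 188 in Meis1cko, and it was the 1 collagen gene (2.38%) whose genotypes did not overlap with Meis1cko higher, against 3.12% of all genes. Its log2 fold change was 0.32 (SE 0.14, unadjusted p = 0.0518 from limma, or unadjusted p = 0.0250 with the block) and 0.32 without control replicate 1. For a second Col18a1 probe set, with a control mean of 162 against 169, the genotypes overlapped. That probe set had 0.21 (SE 0.18, unadjusted p = 0.293 from limma). Non-overlap with Meis1cko lower was seen for 4 genes (9.52%: Col1a2, Col3a1, Col12a1 and Col4a3), against 3.82% of all genes. The 25 genes whose brightest probe set is not described array by array had log2 fold changes from -0.41 to 0.43 and a lowest unadjusted p of 0.0964.

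Control replicate 1 was the highest of the 6 arrays for 19 of 42 collagen genes (45.2%), against 25.7% of all genes. It exceeded the mean of the other 2 controls by over 1.5 times for 9 of 42 (21.4%), against 451 of 18193 genes (2.48%). These were Col1a2, Col3a1, Col5a2, Col6a1, Col6a2, Col6a3, Col8a1, Col8a2 and Col12a1. Of the 27 collagen genes below 0, 20 stayed below 0 without this array, and of the 15 above 0, 14 stayed above. The unadjusted calls without it were Col3a1 and Col12a1, both lower (4.76%), against 0.665% lower and 0.863% higher over all genes. At the thresholds of the methods 0 collagen genes remained in either direction, against 0.275% lower and 0.407% higher over all genes. By class the median log2 fold change then was -0.05 for fibrillar collagens, 0.08 for type IV and 0.03 for the others. Left out together, the replicate 3 arrays took the median the other way, to -0.10. Then 6 collagen genes were lower (14.3%) and 1 higher at an unadjusted p under 0.05, against 2.26% and 2.14% of all genes. At the thresholds of the methods 4 were lower and 0 higher, against 0.682% and 0.643% of all genes, and 0 passed the adjusted threshold, against 0.011% lower and 0.022% higher. With same-numbered mice taken as 3 pairs, which the labels do not state, 9 collagen genes were lower in every pair and 5 higher. The shares of all genes were 17.2% and 12.9%.

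**Figure D3:**
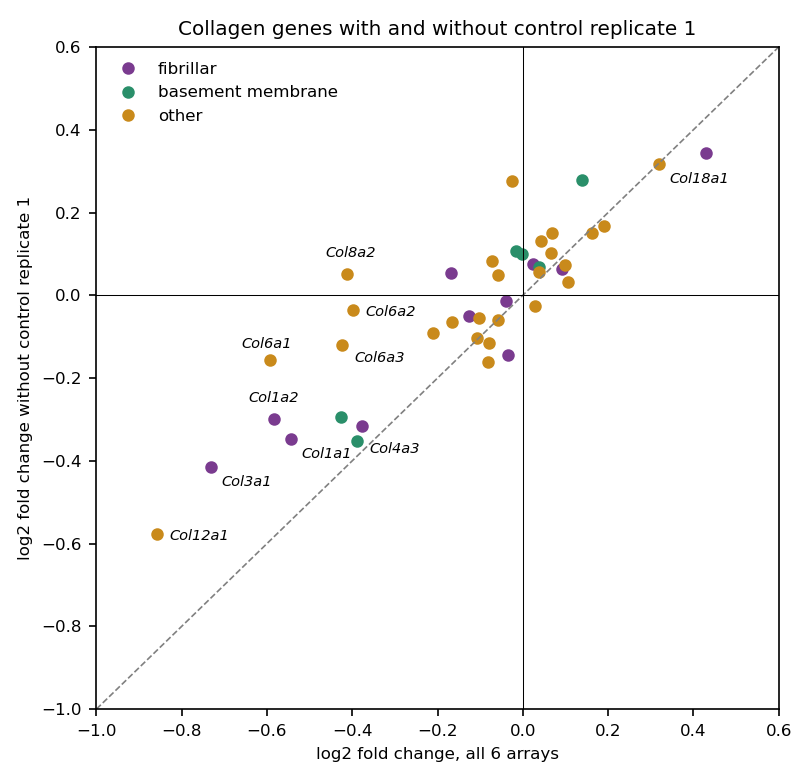
Log2 fold change (Meis1cko minus control) of the 42 collagen genes with all 6 arrays (x axis) and without control replicate 1 (y axis), with the dashed line at equal values. The lowest genes lie above the line, as Col6a1 does (-0.59 and -0.16), while Col4a3 (-0.39 and -0.35) and Col18a1 (0.32 and 0.32) lie near it.

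For 27 of the collagen genes the arrays held several probe sets, and in 15 of them all probe sets had the same sign. A second Col1a2 probe set read 757, 525 and 529 in the controls and 375, 295 and 367 in Meis1cko, with no overlap. Its log2 fold change was -0.79 (SE 0.18, unadjusted p = 0.00332 from limma), and it was past the thresholds of the methods with and without control replicate 1 (without it -0.62, unadjusted p = 0.00835). The second Col3a1 probe set had -0.75 (SE 0.39, unadjusted p = 0.0952), close to the -0.73 of the first. The other Col1a1 probe set had -0.34 (SE 0.29). The genotypes overlapped for the second probe sets of Col4a3 and Col4a5, which were dimmer, with control means of 15.1 and 21.6. That of Col4a3 had -0.12 (SE 0.12, unadjusted p = 0.335 from limma). That of Col4a5 had -0.20 (SE 0.24, unadjusted p = 0.317 from limma with the block).

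For Col12a1 the probe sets disagreed. The second brightest read 100, 92.9 and 114 in the controls and 87.2, 115 and 187 in Meis1cko, a log2 fold change of 0.27 (SE 0.27), and both dim ones had -0.13 and 0.03. The mean over the Col12a1 probe sets was -0.17. For Col5a1 the brightest had -0.04, whereas a second read 142, 103 and 90.4 in the controls and 89.8, 74.0 and 64.9 in Meis1cko, with no overlap (-0.54, SE 0.20, unadjusted p = 0.0313). The third Col5a1 probe set went the other way, with 0.20 (SE 0.17) and overlapping genotypes. Over all 82 collagen probe sets, 3 were past the thresholds of the methods, all lower, against 0.357% lower and 0.318% higher of all 45037 probe sets. They were the brightest ones of Col3a1 and Col12a1 and the second one of Col1a2.

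**Figure D4:**
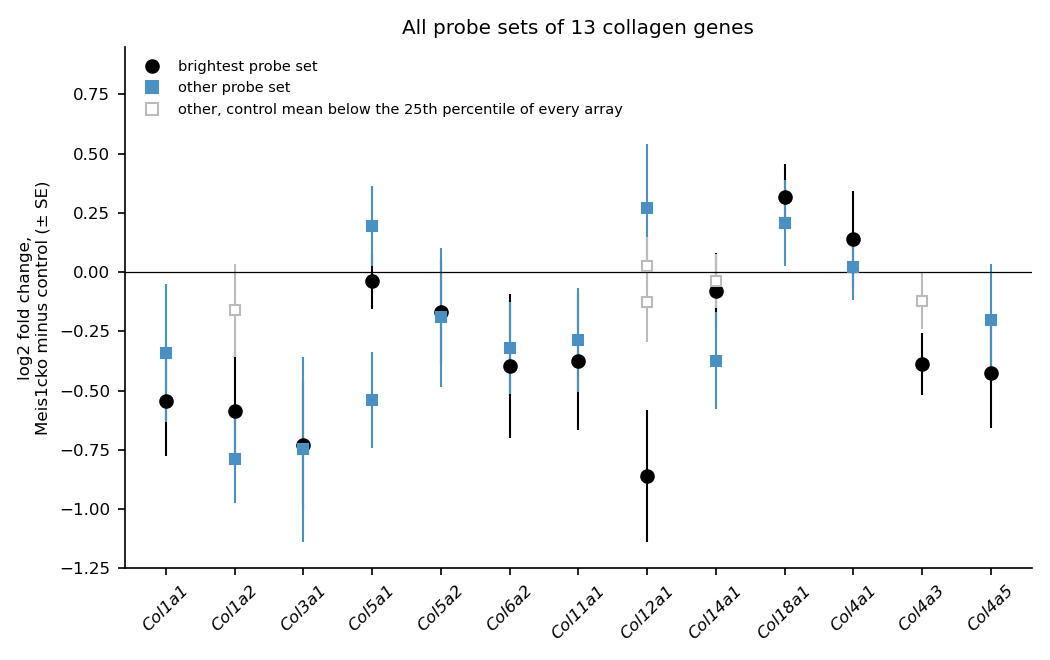
Log2 fold change (Meis1cko minus control, y axis) of every probe set of 13 collagen genes, with bars of 1 SE, filled black for the brightest and blue or open grey (dim) for the others. Both Col3a1 probe sets lie near -0.75, whereas those of Col12a1 run from -0.86 to 0.27.

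The genes that make, process and bind collagen were counted next, and 0 of them passed the adjusted threshold in limma. At an unadjusted p under 0.05, 1.37% of all genes were lower and 1.19% higher. With the block those shares were 3.81% and 3.3%. Of 19 measured modifying enzymes and chaperones, 1 was higher and 0 lower at an unadjusted p under 0.05, with a median log2 fold change of -0.04, 9 genes above 0 and 10 below. The higher one was P4ha2, a subunit of the prolyl hydroxylase that stabilises the triple helix, which read 294, 241 and 254 in the controls and 411, 325 and 336 in Meis1cko (0.44, SE 0.14, unadjusted p = 0.0180, no overlap). P4ha1, the other common subunit, had 0.22 (SE 0.13), and the prolyl 3-hydroxylase P3h1 had 0.20 (SE 0.16). On the other side, the chaperone Serpinh1, named after its values were seen, had the lowest value of the list, -0.25 (SE 0.27).

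Of 10 measured processing and crosslinking genes, 1 was lower, with a median of -0.01. Pcolce, which enhances removal of the procollagen C-propeptide, read 744, 406 and 462 in the controls and 429, 303 and 283 in Meis1cko (-0.64, SE 0.26, unadjusted p = 0.0424 from limma, and -0.38 without control replicate 1). Its genotypes overlapped, and control replicate 1 was again the highest. The crosslinking oxidases Lox and Loxl4 had 0.37 (SE 0.20) and -0.31 (SE 0.15), and with the block Lox was also past an unadjusted p of 0.05, higher.

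Of 8 measured collagen receptors and of 14 measured laminin, nidogen and proteoglycan genes of basement membranes, 0 were past an unadjusted p of 0.05, with medians of 0.09 and -0.02. Among the receptors, Lair1 had 0.30, the integrin gene Itga2 0.11 and the kinase gene Ddr2 -0.19. Non-overlap with Meis1cko higher was seen for 2 of the 8 receptors, Lair1 and Itga2, and for 0 of the 14, against 3.12% of all genes. Non-overlap with Meis1cko lower was seen for 0 of the 8 and for 1 of the 14, Nid1, against 3.82% of all genes. Nid1, which links laminin to type IV collagen, read 954, 996 and 850.2 in the controls and 841, 813 and 676 in Meis1cko without overlap (-0.27, SE 0.14, unadjusted p = 0.0880). With the block Nid1 was lower at an unadjusted p under 0.05. Nid2 had -0.35 (SE 0.18) and Lama5 0.33 (SE 0.34).

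Markers of the cells that make collagen were compared on the same arrays. Over all genes 54.2% were below 0, and in limma 1.37% were lower and 1.19% higher at an unadjusted p under 0.05. With the block those shares were 3.81% and 3.3%, and the marker counts below are to be read beside them. Of 10 fibroblast markers, 9 were below 0 with a median log2 fold change of -0.35, or -0.14 without control replicate 1, and 2 were lower at an unadjusted p under 0.05, or 5 with the block, where Dcn, Mfap5 and Pi16 joined. Their summed intensity was 11495 in control replicate 1, 7528 and 7779 in the other controls and 5331 to 7400 in Meis1cko. Dcn alone gave most of these sums, with 7583, 4870 and 5102 in control replicates 1, 2 and 3. The pair that was lower without the block were Lum and Clec3b. Lum, a proteoglycan on collagen fibrils, read 1158, 913 and 1119 in the controls and 437, 388 and 429.98 in Meis1cko. It lay at -1.34 on the log2 scale (SE 0.14), and the adjusted p from limma was 0.0686, or 0.00717 with the block. Control replicate 1 was not set apart for Lum, at 1.14 times the mean of the other 2. Clec3b, a secreted plasminogen-binding protein, had -1.19 (SE 0.35), and control replicate 1 was 2.51 times the mean of the other 2 controls.

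Meningeal, perineurial and macrophage markers were also highest in control replicate 1, with a mean log2 deviation of 0.65, 0.49 and 0.54 from the 6-array mean of each gene. Their median log2 fold changes were -0.17 (7 genes), -0.17 (7 genes) and -0.25 (6 genes), and 0.04, -0.01 and -0.08 without control replicate 1. Of these markers 1 was lower at an unadjusted p under 0.05, the macrophage receptor Mrc1 (-0.90, SE 0.33, unadjusted p = 0.0274). With the block 3 macrophage (Mrc1, Aif1 and Csf1r), 2 perineurial (Mpzl2 and Lypd2) and 1 meningeal marker (Slc6a13) were lower. In control replicate 1 the summed meningeal markers were 1028 against 554 and 540 in the other controls and 484 to 778 in Meis1cko, and the macrophage markers were 1307 against 829 and 757 and 543 to 978. Perineurial sums ranged from 2971 to 3385 in the controls and from 2637 to 3741 in Meis1cko. The largest parts were Slc2a1 and Moxd1 in the perineurial sums (control means 1144 and 1453) and Csf1r in the macrophage sums (control mean 637). The part of these cell types in the lower collagen values was not tested.

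Mural cell markers of vessels had a median of 0.11 over 8 genes, with 2 higher at an unadjusted p under 0.05, the smooth muscle genes Acta2 (0.76, SE 0.20) and Tagln (0.47, SE 0.16). The mural sums were 4290 to 6210 in the controls and 4757 to 8291 in Meis1cko, with Rgs5 (control mean 3680) as their largest part. Medians of the 8 endothelial, 5 measured Schwann cell, 6 satellite glia and 8 sensory neuron markers were 0.02, 0.01, -0.09 and 0.06. At an unadjusted p under 0.05, 2 satellite glia markers were lower (Ednrb, -0.67, and Kcnj10, -0.36) and 1 sensory neuron marker was higher (Scn10a, 0.48, the gene whose promoter drives the Cre). With the block 1 endothelial marker (Tek, 0.31) was higher as well.

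Markers of tissues outside the ganglion also differed between the arrays. Skeletal muscle markers summed to 3500, 1939 and 403 in control replicates 1, 2 and 3 and to 699 to 1708 in Meis1cko, with a median of -0.15 over 9 genes, of which 0 passed an unadjusted p of 0.05 and 1 was higher with the block (Myh1). Cartilage and bone markers (9 measured, median 0.02) summed to 1184 to 1465 in the controls and to 1051 to 1096 in Meis1cko, and 1 was higher (Hapln1, 0.37) and 1 lower at an unadjusted p under 0.05. The lower one, Cnmd, a cartilage glycoprotein, had -1.07 (SE 0.12) with an adjusted p of 0.0866 from limma and of 0.0252 with the block. With means of 592 in the controls and 282 in Meis1cko, Cnmd was the largest part of the control sums. Fat markers (3 measured) had a median of 0.05 and sums of 56.0 to 211 in the controls and 80.0 to 167 in Meis1cko.

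Each array was also read as the mean log2 deviation from the 6-array mean of each gene. Fibrillar collagens stood at 0.28 and the other collagens at 0.26 in control replicate 1. A set of 6 chains (Col1a1, Col1a2, Col3a1, Col6a1, Col6a2 and Col6a3) stood at 0.91 there and at 0.04 and -0.13 in the other controls. In Meis1cko replicates 1, 2 and 3 this set stood at -0.14, -0.41 and -0.26. It is not a class of the sorting, leaves out Col6a4 and Col6a5, and was chosen with earlier results known. Fibroblast markers stood at 0.70, 0.08 and -0.09 in the controls and -0.04, -0.28 and -0.37 in Meis1cko. Type IV chains stood at 0.24, 0.09 and -0.17 in the controls and -0.01, -0.04 and -0.11 in Meis1cko. Endothelial markers stood at 0.08, -0.11 and -0.05 in the controls and 0.08, 0.09 and -0.09 in Meis1cko.

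**Figure D5:**
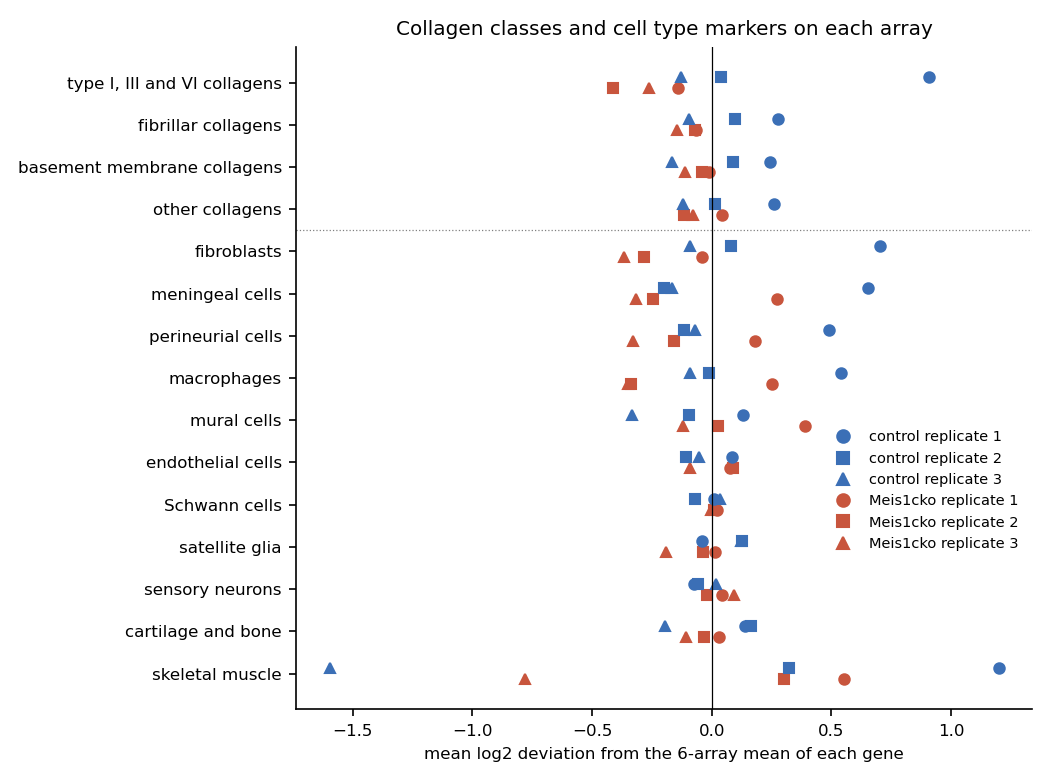
Mean log2 deviation from the 6-array mean of each gene (x axis) for collagen classes above the dotted line and cell type markers below it, 1 point per array, blue for control and red for Meis1cko, with a symbol for each replicate number. Control replicate 1 stands at 0.28, 0.24 and 0.26 for fibrillar, type IV and other collagens. It stands at 0.91 for 6 chosen chains of types I, III and VI, 0.70 for fibroblast markers and 1.20 for skeletal muscle markers.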

How the data were processed

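Total RNA of whole DRGs was hybridized to single-colour Affymetrix arrays. For its extraction the sample labels name Trizol and the study's methods an RNeasy kit. The authors read the images with GeneChip Command Console 4.0 and analysed them in GeneSpring 12.5, and the values they deposited are normalized intensities, linear and not logged. The method of summarising and normalizing is not given in the sources used here, which bears on dim probe sets.

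Intensities were taken to log2 without an offset (values under 1 set to 1), and the 64 control probe sets were left out. The genotypes were compared in R 4.3.3 with limma 3.58.1 (functions lmFit and eBayes) and no block, with Benjamini-Hochberg adjustment over 45037 probe sets and 0.05 as the threshold. Symbols came from the array annotation, which gives 34945 probe sets a single gene, 932 more than 1 and 9160 no gene. All 42 collagen gene IDs were in the RefSeq table of GRCm38.p6, which also gave neighbours. No length or depth exists for arrays, so their number limits the precision. Levels of collagen genes were ranked only to choose those described. Marker intensities were summed over the genes of a list, and the largest parts of some sums were named. The 3 arrays of a genotype are of 3 mice.

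Replicate numbers are given in the labels without a meaning. Same-numbered arrays deviated together from their group means (correlations of 0.424, 0.535 and 0.766 over all probe sets), whereas different numbers gave 0.337 and 0.319 for replicates 1 and 2 and -0.60 to -0.52 where a replicate 3 array was involved. On this basis, from the data alone, a shared number was treated as a pair. The p-values with the block therefore rest on a pairing chosen from these same arrays.

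The collagen genes and all lists were chosen with earlier results of these data known. Values per array are given for the 5 genes with the highest control mean in each class, which sets no order between genes, for up to 6 per direction with the smallest unadjusted p under 0.05, for genes whose call changes without control replicate 1, and for up to 3 members per list of related genes. Partner chains are named with them, and genes counted in 5 or fewer were named after their values were seen. Alternatives were an eBayes trend, array weights, the methods' t-test, quantile normalization, median centring, removal of probe sets dimmer than the median or the 25th percentile, an offset of 16 or of 50, blocking on the replicate number, each array or both arrays of replicates 1 or 3 left out, and the mean over probe sets. The fit was also run on simulated data with independent noise on each array. Such data lack the deviations that same-numbered arrays share, so the run does not check the p-values under them.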

Additional observations from a re-analysis of the deposited data

How the results depend on the processing

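The count of collagen genes past the adjusted threshold was 0 under every alternative run, the replicate block included. The count past the thresholds of the methods was 2 lower, against 0.456% of all genes. It was 0 by the methods' t-test (0.269% of all genes), 5 with array weights (0.885%), 1 with an offset of 50 (0.209%), 4 with both replicate 3 arrays left out (0.682%), 1 with both replicate 1 arrays left out (0.495%), 1 by the mean over probe sets (0.39%) and 3 with the replicate block (0.588%). Leaving out 1 array gave 0 lower (without control replicate 1, 0.275% of all genes, or Meis1cko replicate 2, 0.456%) to 6 lower (without control replicate 3, 0.841%), and 0 to 1 higher (1 without control replicate 2, 0.429%, or Meis1cko replicate 3, 1%). The cause was not tested. The median log2 fold change over all collagen genes moved by less than the spread between replicates. The fibrillar median of -0.13 was -0.27 once probe sets dimmer than the median were removed and -0.0036 with both replicate 1 arrays left out, and that of the other collagens, -0.06, was 0.03 without control replicate 1.

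Of the 17 genes described array by array, 5 had their sign turned, in 16 fits together. With 1 array left out, Col5a2 ran from -0.30 to 0.053, Col4a1 from -0.025 to 0.28, Col4a2 from -0.12 to 0.11, Col4a4 from -0.16 to 0.10 and Col8a1 from -0.38 to 0.28. Col4a2 was 0.046 with both replicate 1 arrays left out, Col4a4 was 0.00012 with quantile normalization, 0.0049 with median centring and 0.066 with both replicate 1 arrays left out, and Col8a1 was 0.031 by the mean over probe sets. With the replicates paired as a block, 9 collagen genes against 5 were lower at an unadjusted p under 0.05 and 2 against 0 higher, while the share of all genes went from 1.37% to 3.81% lower and from 1.19% to 3.3% higher. Probe sets near background (Col6a5, Col17a1, Col24a1) allow no reading of a difference.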
